A study of Mus musculus with 20 samples.

Results

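Complement components, receptors and regulators were followed in mouse kidney after ischemia reperfusion injury (IRI), with and without a maneuver given beforehand to protect the organ. The 9 genes were chosen by name: C1qa, C1qb, C3, C4b, C3ar1, C5ar1, Cfb, Cfd and Cd59a. All 9 were on the array, where they are 9 of 27827 gene names and are read by 12 of 41174 probes. RNA from whole kidney was measured on 20 single-colour Agilent whole mouse genome arrays, 4 in each of 5 groups. All mice were male C57BL/6, 8 to 12 weeks old. No surgery or treatment is recorded for Control mice, and the paper does not say whether they had a sham operation. No group is therefore known to stand for anesthesia and incision without clamping. IRI mice had both renal pedicles clamped for 45 min and were studied after 6 h of reperfusion. IRI+Hemin mice went through the same injury 24 h after an intraperitoneal injection of Hemin, an inducer of heme oxygenase 1, at 25 mg/kg. IPC+IRI mice had ischemic preconditioning (IPC), which was 15 min of clamping done 7 days before the injury. Hemin mice received Hemin and no clamping. The labels number the arrays of a group without stating that each comes from a separate mouse, so the p-values measure the spread between these arrays.

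Complement is a cascade of plasma proteins that tags cells and debris for removal, and it is started by the classical, lectin and alternative pathways. The pathways meet at C3, whose cleavage coats surfaces with C3b and releases C3a, and further cleavage of C5 releases C5a and starts the membrane attack complex. Most plasma complement is made by the liver, but kidney tubule cells and macrophages also transcribe components, and complement activation is a known part of renal ischemic injury.

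Each value below is log2 expression: log2 of a gene's processed signal divided by the 75th percentile of all signals on the same array. A value of 0 therefore lies at that percentile, and values of different genes are not compared, because their probes differ. A spot was well above background when the scanner software flagged it so. The 75th percentile ranged from 146.7 to 357.9 signal units, and 57.4% to 67.4% of gene names were well above background on an array. The 4 arrays of a group shared 1 slide with no other group, so a slide effect and a group effect cannot be told apart, and of the comparisons below IRI vs Control alone lay within 1 scan day. In whole tissue, fewer cells of a type and less RNA per cell cannot be told apart.

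C3, C4b and Cd59a were the members that changed. In IRI vs Control none of the 7 members tested passed an adjusted p of 0.05 by limma, where 51% of all 17711 genes tested did. In IPC+IRI vs Control, C3 and C4b were up-regulated, 2 of 8 members tested. Of all genes 56% were called and 23.3% were up-regulated. In IRI+Hemin vs Control, C3 and Cd59a were up-regulated, 2 of 7, against 57.6% of all genes called and 24.4% up-regulated. C3, C4b and Cd59a were up-regulated in IPC+IRI vs IRI, 3 of 8, against 44.1% called and 26.3% up-regulated. In IRI+Hemin vs IRI, C3 and Cd59a were again the 2 of 7 that were up-regulated, against 44.5% called and 26.3% up-regulated. In Hemin vs Control, Cd59a alone of 8 was up-regulated, against 36.1% called and 18.5% up-regulated. The interaction of Hemin and IRI, which asks whether the effect of Hemin differed between injured and uninjured kidney, was called for 0 of 8 members, against 7.79% of all genes. In these 2 comparisons without a call, no member had an unadjusted limma p below 0.05 either. No member was down-regulated in any of the 7 comparisons. The share of members called lay below the share of all genes called in each. The comparisons with Control share the Control arrays, as those with IRI share the IRI arrays.

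**Figure D1:**
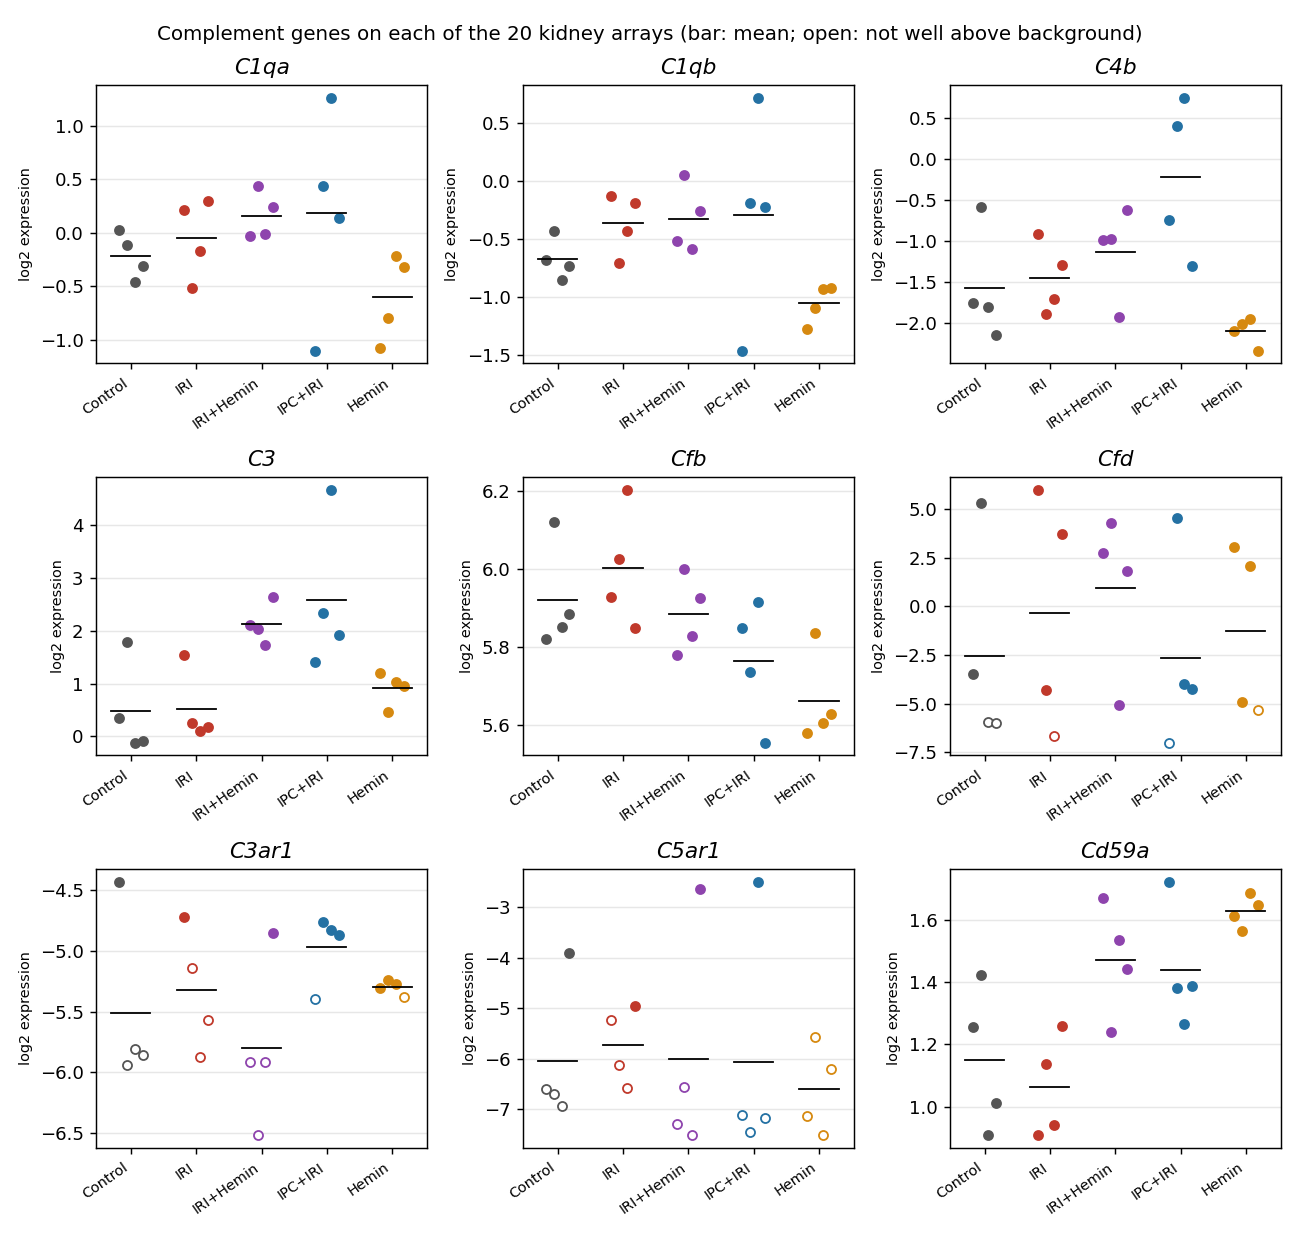
Log2 expression of the 9 members (1 panel a gene, vertical axis, log2 of signal over the array's 75th percentile) on each of the 4 arrays of the 5 groups (horizontal axis). Filled points are well above background, open points are not, and bars are group means. The 4 IRI+Hemin and 4 IPC+IRI points of C3 lie at 1.40 or higher, while Cfd points fall into a high and a low set in every group.

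C1qa and C1qb encode chains of C1q, the molecule that recognises bound antibody and dying cells and starts the classical pathway. C1q is made mainly by macrophages. The probes shown here are those behind the C1q and C4b values, each a 60-base run read 5′ to 3′ on the minus strand of mm9. The C1qa probe (RefSeq NM_007572) lies at chr4:136452409-136452468, the C1qb probe (NM_009777) at chr4:136436578-136436637 and the C4b probe (NM_009780) at chr17:34866361-34866420.

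C1qa: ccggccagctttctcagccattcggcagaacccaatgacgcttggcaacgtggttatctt
C1qb: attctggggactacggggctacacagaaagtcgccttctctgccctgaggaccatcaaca
C4b: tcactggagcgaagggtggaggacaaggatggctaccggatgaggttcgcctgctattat

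C1qa log2 expression was 0.03, -0.12, -0.46 and -0.31 on the Control arrays and 0.21, -0.51, -0.17 and 0.30 on the IRI arrays. On the IRI+Hemin arrays it was -0.02, 0.44, -0.01 and 0.24, and on the Hemin arrays it was -1.08, -0.79, -0.22 and -0.31. On the IPC+IRI arrays it was -1.10, 0.44, 1.26 and 0.14. The IPC+IRI arrays thus held both the lowest and the highest C1qa value of the 20. C1qa did not pass the test in any comparison. Its differences from Control were 0.17 (IRI), 0.38 (IRI+Hemin), 0.40 (IPC+IRI) and -0.39 (Hemin) on the log2 scale.

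C1qb followed C1qa closely. Its log2 expression was -0.68, -0.43, -0.85 and -0.74 on the Control arrays, and -1.27, -1.09, -0.93 and -0.92 on the Hemin arrays. All 4 Hemin arrays were below all 4 Control arrays, with a difference of -0.38 ± 0.30 (SE), an exact permutation p of 0.0286 and a limma adjusted p of 0.338. Groups that do not overlap were found for 37.6% of all genes in Hemin vs Control. On the IPC+IRI arrays C1qb was -1.46, -0.19, 0.72 and -0.22, again the lowest and the highest of the 20. It was -0.13, -0.71, -0.43 and -0.19 on the IRI arrays and -0.52, 0.05, -0.59 and -0.26 on the IRI+Hemin arrays, and both sets overlapped with Control.

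The differences of both C1q genes between IPC+IRI and Control rested on single IPC+IRI arrays. Without replicate 3, the highest, they were 0.044 for C1qa (limma adjusted p = 0.916) and 0.050 for C1qb (0.883). Without replicate 1, the lowest, C1qa was 0.83 higher in IPC+IRI than in Control (SE 0.26, limma adjusted p = 0.0135) and C1qb was 0.78 higher (SE 0.22, adjusted p = 0.00607). The C1qb difference in Hemin vs Control was called when only the arrays of that comparison were fitted (adjusted p = 0.0406). Across the 20 arrays the Pearson r was 0.961 between C1qa and C1qb, 0.859 between C1qa and C1qc and 0.811 between C1qb and C1qc. C1qc, the remaining chain of C1q, was up-regulated by 0.81 in IPC+IRI vs Control and by 0.80 in IPC+IRI vs IRI, calls that were lost in 4 and in 6 of the 8 fits that left out 1 array (adjusted p up to 0.112 and 0.139).

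C4b encodes a form of C4, which C1s cleaves and which joins C2 in the classical and lectin C3 convertase. C4b was up-regulated in IPC+IRI vs Control and in IPC+IRI vs IRI. On the IPC+IRI arrays its log2 expression was -0.75, 0.41, 0.75 and -1.30. It was -1.76, -0.58, -1.81 and -2.15 on the Control arrays and -0.91, -1.89, -1.71 and -1.29 on the IRI arrays. Replicates 2 and 3 of IPC+IRI were above every array of the other groups, and replicates 1 and 4 overlapped with them. On the IRI+Hemin arrays C4b was -0.99, -0.97, -1.93 and -0.63. On the Hemin arrays it was -2.10, -2.02, -1.96 and -2.34, a narrow range that lay near the lower end of the Control arrays.

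C4b was 2.55-fold higher in IPC+IRI than in Control (1.35 on the log2 scale, SE 0.41, limma adjusted p = 0.0089) and 2.34-fold higher than in IRI (1.23, SE 0.41, adjusted p = 0.0203). The exact permutation p was 0.0857 in both, where 4 against 4 arrays can give no p below 0.029. The call against IRI was lost without IPC+IRI replicate 2 (1.02, adjusted p = 0.0666) or 3 (0.90, 0.0832) and without IRI replicate 2 (1.08, 0.0587) or 3 (1.14, 0.0529). It was also lost when only the arrays of the comparison were fitted (adjusted p = 0.0538). On the arrays where the fat cell gene Adipoq was not well above background the difference from IRI was 1.37, and the call was lost. The annotation lists the C4b probe also for NM_011413, the transcript of its near-identical neighbor C4a, so the signal may hold both.

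C3 had the largest differences of the members that were called. It was higher in both groups pretreated before the injury than in Control and in IRI, and IRI itself did not differ from Control beyond the spread. Its log2 expression was 0.34, 1.79, -0.12 and -0.08 on the Control arrays and 1.54, 0.26, 0.10 and 0.18 on the IRI arrays. It was 2.12, 2.04, 1.72 and 2.64 on the IRI+Hemin arrays. It was 1.40, 2.33, 4.67 and 1.91 on the IPC+IRI arrays. The IRI+Hemin arrays were all above the IRI arrays, and in both Control and IRI a single array stood above the other 3. The highest value by far was IPC+IRI replicate 3, the array that was also highest for C4b, C1qa and C1qb. On the Hemin arrays C3 was 1.19, 0.46, 1.02 and 0.96.

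In IPC+IRI, C3 was 4.28-fold higher than in Control (2.10 on the log2 scale, SE 0.55, limma adjusted p = 0.00366) and 4.17-fold higher than in IRI (2.06, SE 0.55, adjusted p = 0.00587). In IRI+Hemin it was 3.13-fold higher than in Control (1.65, SE 0.55, adjusted p = 0.0166) and 3.05-fold higher than in IRI (1.61, SE 0.55, adjusted p = 0.0242). The exact permutation p was 0.0286 for IRI+Hemin vs IRI, where 38.9% of all genes had groups that did not overlap, and 0.0571 for the other 3. IRI vs Control differed by 0.04 (SE 0.55, 95% interval -1.14 to 1.21). Hemin vs Control differed by 0.43 (SE 0.55, adjusted p = 0.574). The interaction was 1.18 (SE 0.78, adjusted p = 0.405), so a difference in the effect of Hemin between injured and uninjured kidney was not shown.

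**Figure D2:**
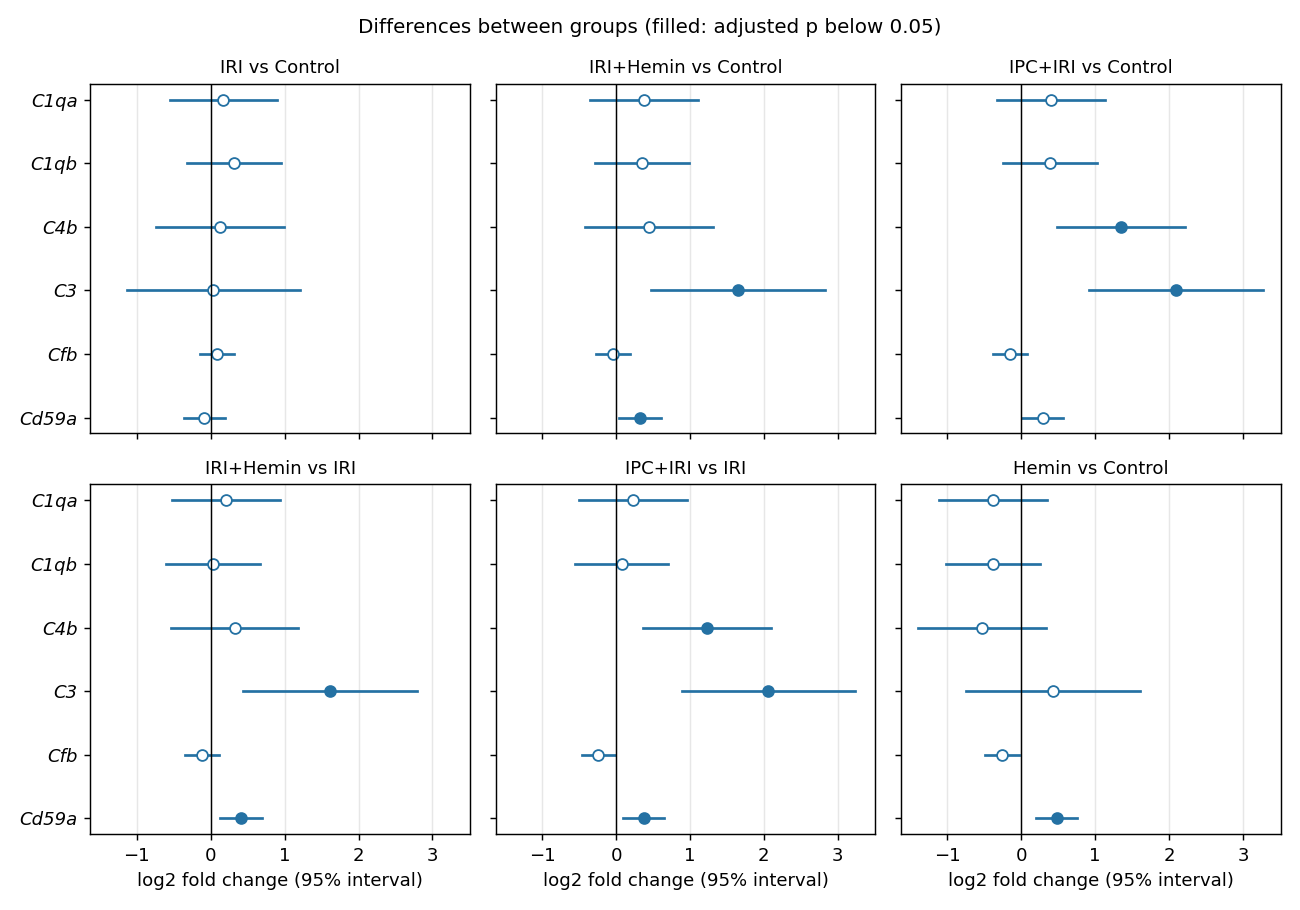
Differences in log2 expression between groups (horizontal axis, limma estimate with 95% interval from its SE and 15 degrees of freedom) for the 6 members well above background on all 20 arrays (vertical axis), 1 panel a comparison. Filled points have an adjusted p below 0.05. C3 lies at 2.10 in IPC+IRI vs Control and 2.06 in IPC+IRI vs IRI, and Cd59a at 0.48 in Hemin vs Control with a much narrower interval.

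The C3 values depend on how its probes are averaged and on which arrays are read. Without IPC+IRI replicate 3 the differences fell to 1.40 (adjusted p = 0.0102) against Control and to 1.36 (0.0167) against IRI. The call in IRI+Hemin vs Control was lost without Control replicate 3 (adjusted p = 0.0519) or 4 (0.0512), and that in IRI+Hemin vs IRI without IRI replicate 2, 3 or 4 or IRI+Hemin replicate 4 (adjusted p between 0.0552 and 0.067).

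C3 (NM_009778) has a pair of probes, and they are shown because they differ. The bright probe was spotted 10 times on each array and lies at mm9 chr17:57343416-57343475 on the minus strand. Its capitals mark the stop codon, after which its last bases belong to the 3′ untranslated region. The dim probe maps upstream within C3, at chr17:57364538-57364695 on the same strand, where its 60 bases are spread over 158 bases of genome.

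C3 bright probe: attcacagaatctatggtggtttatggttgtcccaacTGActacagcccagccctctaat
C3 dim probe: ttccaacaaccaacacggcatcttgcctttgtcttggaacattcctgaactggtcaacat

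The bright probe was well above background on all 20 arrays, with means of 1.47 ± 0.90 (SD, n = 4) on the Control arrays, 1.51 ± 0.69 on the IRI arrays and 1.91 ± 0.31 on the Hemin arrays, below its means of 3.13 ± 0.38 for IRI+Hemin and 3.58 ± 1.44 for IPC+IRI. The dim probe was well above background on 1 of 20 arrays, so it gives little more than a bound. Averaging the log2 values of both probes, in place of their signals, gave the dim probe equal weight and kept only the call in IPC+IRI vs IRI (1.38, adjusted p = 0.0257), with 0.81 (0.155), 0.29 (0.62) and 0.86 (0.152) in the other 3.

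**Figure D3:**
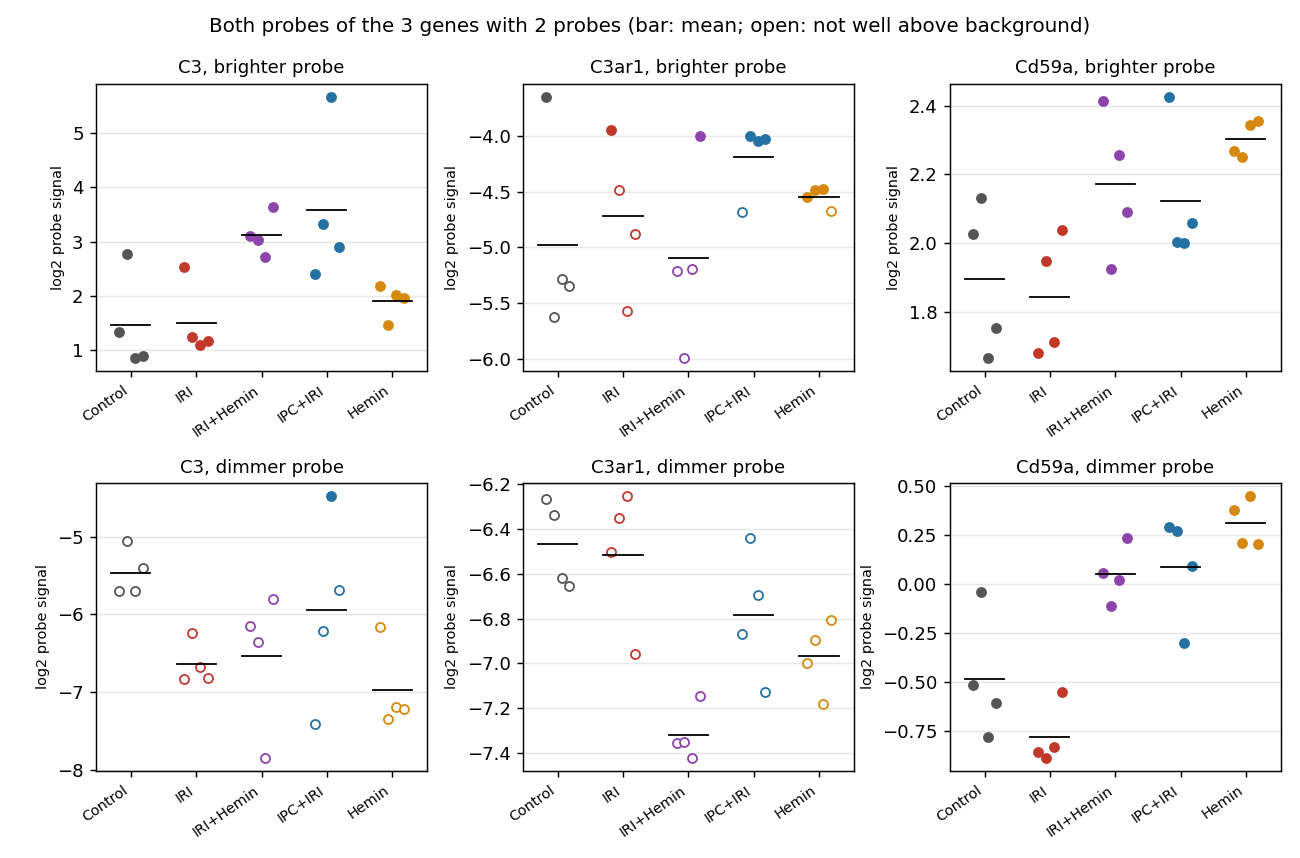
Log2 expression of each probe of C3, C3ar1 and Cd59a, the members with a pair of probes (vertical axis), on the 4 arrays of each group (horizontal axis). Filled points are well above background and open points are not. The dim C3 probe stays at or near background on 19 of 20 arrays, whereas both Cd59a probes are measured.

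The 250 bases before the C3 start site are given because C3 had the largest called differences. In GRCm38.p6, the build of the RefSeq promoter table and not that of the array, they lie at chr17:57228137-57228386 on the minus strand. Capitals mark 3 matches to TTNNGNAA, a form of the C/EBP motif, whose last bases lie 63, 51 and 38 bases before the start. The match nearest the start is found on both strands.

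C3 promoter: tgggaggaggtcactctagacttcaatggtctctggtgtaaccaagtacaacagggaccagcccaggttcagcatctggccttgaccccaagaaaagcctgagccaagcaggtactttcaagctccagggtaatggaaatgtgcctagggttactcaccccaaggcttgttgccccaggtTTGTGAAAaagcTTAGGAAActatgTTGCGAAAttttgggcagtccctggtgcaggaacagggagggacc

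Of 32851 promoters of that length 36.8% held TTNNGNAA on either strand, and so did C3 and C5ar1 among the 6 members in the table. A form of the interferon response motif, GAAA followed after any 2 bases by GAAA, was found in 2.98% of promoters and in that of Cd59a. The STAT motif TTCNNNGAA, present in 7.02%, and the NF-kappaB consensus, present in 3.9%, had no match in the 6.

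Cfb and Cfd belong to the alternative pathway. Factor B, the product of Cfb, binds C3b and is cut by factor D, the product of Cfd, to form the alternative C3 convertase. Cfb (NM_008198, probe within mm9 chr17:34993502-34993858, minus strand) was steady. Its log2 expression was 5.82, 6.12, 5.85 and 5.89 on the Control arrays and 5.93, 6.03, 6.20 and 5.85 on the IRI arrays. It was 5.78, 6.00, 5.83 and 5.93 on the IRI+Hemin arrays and 5.85, 5.74, 5.92 and 5.56 on the IPC+IRI arrays. On the Hemin arrays it was 5.58, 5.84, 5.61 and 5.63. The 20 values lay between 5.56 and 6.20.

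Cfb was not called in any comparison. Its lowest limma adjusted p was 0.0709 for Hemin vs Control, where it differed by -0.26 (SE 0.11), followed by 0.0816 for IPC+IRI vs IRI, where it differed by -0.24 (SE 0.11). Both were called down-regulated after quantile normalization (-0.37, adjusted p = 0.00476, and -0.34, 0.00709), as was IPC+IRI vs Control (-0.32, 0.00753). With no normalization between arrays, Hemin vs Control was 0.31 in the other direction (adjusted p = 0.191).

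Cfd encodes adipsin, a protease that fat cells secrete in large amounts. Its log2 expression was -3.45, 5.30, -5.95 and -6.01 on the Control arrays and 6.00, -4.30, -6.66 and 3.71 on the IRI arrays. It was 2.73, 4.31, -5.07 and 1.85 on the IRI+Hemin arrays and -7.01, 4.54, -3.99 and -4.24 on the IPC+IRI arrays. On the Hemin arrays it was 3.05, -4.92, 2.11 and -5.33. The arrays split into a high and a low set, and each of the 5 groups held arrays of both. Cfd (NM_013459, probe at mm9 chr10:79355302-79355361, plus strand) was well above background on 15 of 20 arrays. Its differences had an SE of about 3.27 and none was called.

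The split of Cfd followed Adipoq, which encodes the fat cell hormone adiponectin. On the 9 arrays where Adipoq was well above background, Cfd ranged from 1.85 to 6.00 with a median of 3.71. On the other 11 arrays it ranged from -7.01 to -3.45 with a median of -5.07. The Adipoq arrays were 1 of the 4 Control arrays, 2 IRI arrays, 3 IRI+Hemin arrays, 1 IPC+IRI array and 2 Hemin arrays. The summed signal of the adipocyte marker list, in multiples of the array's 75th percentile, ranged from 4.06 to 59.4 for Control, 7.73 to 56.7 for IRI, 14.5 to 48.7 for IRI+Hemin, 5.25 to 24.9 for IPC+IRI and 6.07 to 20.4 for Hemin. Of the 6 adipocyte markers on the array 3 to 5 were tested in a comparison, and none was called by limma. At an unadjusted p below 0.05 there was 1, in IRI+Hemin vs Control.

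**Figure D4:**
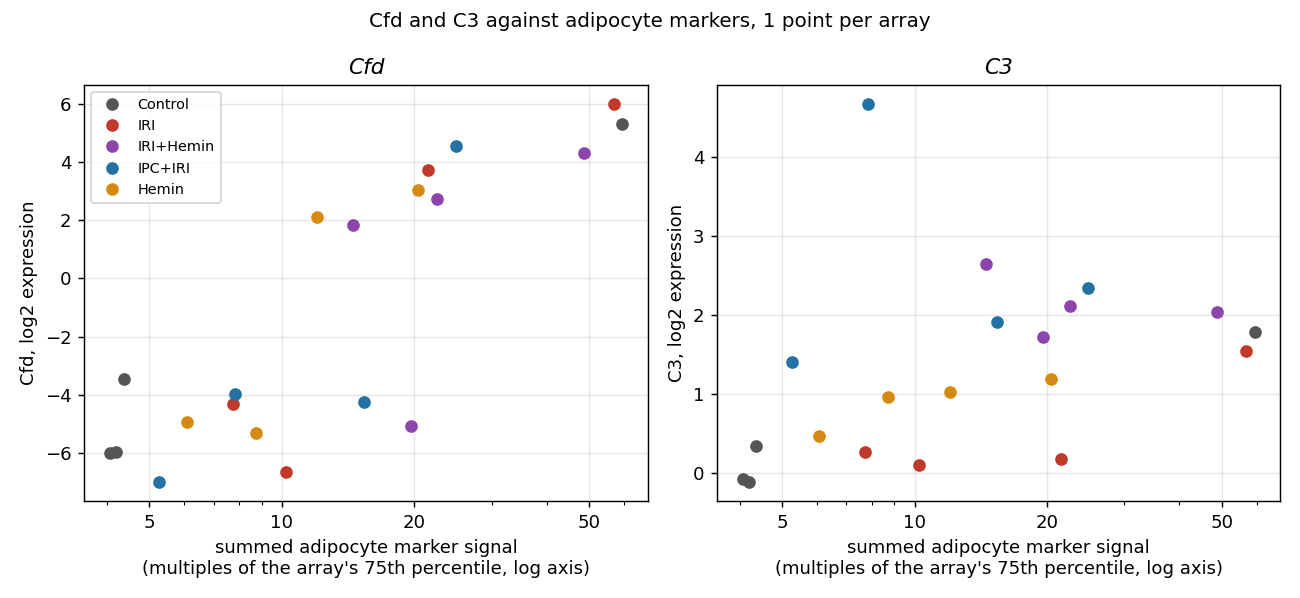
Log2 expression of Cfd and of C3 (vertical axes) against the summed signal of adipocyte markers on the same array (horizontal axis, log scale, multiples of the array's 75th percentile), 1 point for each of the 20 arrays, coloured by group. Cfd forms a low set from -7.01 to -3.45 and a high set from 1.85 to 6.00. All 8 IRI+Hemin and IPC+IRI points of C3 lie at 1.40 or higher, as do 2 of the other 12, at 1.79 and 1.54.

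The single high C3 arrays of Control (replicate 2, 1.79) and IRI (replicate 1, 1.54) were among the Adipoq arrays. Without the 9 Adipoq arrays, C3 ranged from -0.12 to 0.34 in Control (n = 3), 0.10 to 0.26 in IRI (n = 2), 1.40 to 4.67 in IPC+IRI (n = 3) and 0.46 to 0.96 in Hemin (n = 2), and was 1.72 on the 1 remaining IRI+Hemin array. On these arrays C3 was 2.61 higher in IPC+IRI than in Control (limma adjusted p = 0.0153) and 2.48 higher than in IRI (0.0452). For IRI+Hemin it was 1.68 (0.22) and 1.55 (0.348) higher, with its lone array assumed to vary like the other groups. With the adipocyte marker level as a covariate, C3 kept all 4 calls, at 2.13 and 2.31 for IPC+IRI against Control and IRI and at 1.43 and 1.61 for IRI+Hemin against the same groups.

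Hepatocytes make most of the C3 in plasma, and the summed signal of the hepatocyte marker list was 4.27, 2.60, 2.88 and 1.13 on the IRI+Hemin arrays, against 1.66 to 2.39 for Control, 1.51 to 1.90 for IRI, 1.33 to 1.87 for IPC+IRI and 1.61 to 1.89 for Hemin. Of 4 hepatocyte markers tested 2 were higher and 1 lower in IRI+Hemin vs Control, and 2 were higher in IRI+Hemin vs IRI. Their part in the C3 difference was not tested.

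C3ar1 and C5ar1 encode the receptors of the anaphylatoxins C3a and C5a, which myeloid cells carry. Both were dim. C3ar1 (NM_009779) was well above background on 9 of 20 arrays, 1 each in Control, IRI and IRI+Hemin and 3 each in IPC+IRI and Hemin. Its log2 expression was -4.43, -5.94, -5.80 and -5.86 on the Control arrays and -5.40, -4.76, -4.83 and -4.87 on the IPC+IRI arrays. All 4 IPC+IRI arrays, and all 4 Hemin arrays, were above 3 of the 4 Control arrays, but Control replicate 1 was the highest value of the 20. C3ar1 was -4.72, -5.14, -5.87 and -5.57 on the IRI arrays and -5.92, -6.52, -5.92 and -4.85 on the IRI+Hemin arrays. It was -5.30, -5.24, -5.27 and -5.38 on the Hemin arrays. Each of these sets overlapped with the range of the Control arrays.

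C3ar1 entered the comparisons only through the IPC+IRI and Hemin arrays, so its differences set a dim signal against arrays mostly at background, and no size is given for them. None was called, although 3 of 21 alternatives, the fit without Control replicate 1 among them, called IPC+IRI vs Control. The dimmer of its probes was well above background on no array.

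C5ar1 (NM_007577, probe at mm9 chr7:16833871-16833930, minus strand) was well above background on 4 of 20 arrays and was not tested. It was -6.60, -6.70, -6.94 and -3.92 on the Control arrays, -5.23, -6.13, -6.59 and -4.95 on the IRI arrays and -7.30, -6.56, -7.51 and -2.64 on the IRI+Hemin arrays. On the IPC+IRI arrays it was -7.11, -7.45, -2.50 and -7.17, and on the Hemin arrays -7.14, -5.57, -7.51 and -6.21. The 4 arrays well above background were 1 each in Control (replicate 4), IRI (replicate 4), IRI+Hemin (replicate 4) and IPC+IRI (replicate 3).

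Cd59a encodes the main mouse CD59, a membrane anchored protein that keeps C9 from completing the membrane attack complex on the body's own cells. It was higher in Hemin than in Control and higher in both pretreated groups than in IRI, by small amounts. The arrays of a group ranged over 0.12 in Hemin and over 0.35 to 0.51 in the other groups. Its log2 expression was 1.26, 1.42, 0.91 and 1.01 on the Control arrays and 1.61, 1.56, 1.69 and 1.65 on the Hemin arrays. All Hemin arrays were above all Control arrays. It was 0.91, 1.14, 0.94 and 1.26 on the IRI arrays, 1.67, 1.24, 1.53 and 1.44 on the IRI+Hemin arrays and 1.72, 1.38, 1.27 and 1.39 on the IPC+IRI arrays. All IPC+IRI arrays were above all IRI arrays, and 1 IRI+Hemin array overlapped with IRI.

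Cd59a was 1.39-fold higher in Hemin than in Control (0.48 on the log2 scale, SE 0.13, limma adjusted p = 0.00907, exact permutation p = 0.0286). It was 1.33-fold higher in IRI+Hemin than in IRI (0.41, SE 0.13, adjusted p = 0.0166, exact p = 0.0571) and 1.30-fold higher in IPC+IRI than in IRI (0.38, SE 0.13, adjusted p = 0.0259, exact p = 0.0286). Groups that do not overlap were found for 37.9% of all genes in IPC+IRI vs IRI. It was 1.25-fold higher in IRI+Hemin than in Control (0.32, SE 0.13, adjusted p = 0.043) and 0.29 higher in IPC+IRI than in Control (adjusted p = 0.0684). IRI vs Control was -0.09 (SE 0.13, 95% interval -0.37 to 0.19), and the interaction was -0.07 (SE 0.19), so the rise with Hemin was not shown to differ between injured and uninjured kidney.

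Both Cd59a probes (NM_007652, mm9 chr2:103954688-103954747 and chr2:103954170-103954229, plus strand) moved the same way in these 5 comparisons. The brighter differed by 0.41 in Hemin vs Control, 0.33 in IRI+Hemin vs IRI and 0.28 in IPC+IRI vs IRI, and the dimmer by 0.79, 0.83 and 0.87. Read by the brighter probe alone, the calls against IRI were lost (adjusted p = 0.0586 for IRI+Hemin and 0.106 for IPC+IRI). They were also lost without IRI replicate 1 or 3, or without replicate 1 of the pretreated group, with adjusted p up to 0.0957. The call in IRI+Hemin vs Control was lost in most of the alternatives tried, and that in Hemin vs Control was kept in every fit that left out 1 array (adjusted p at most 0.039).

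Ranked by mean, IPC+IRI was the highest group for C1qa, C1qb, C3 and C4b, IRI for Cfb and Hemin for Cd59a. For C1qa and C1qb this rank rested on IPC+IRI replicate 3, without which IPC+IRI vs IRI was -0.13 and -0.26. Hemin was the lowest group for C1qa, C1qb, C4b and Cfb. No order is read from C3ar1 and C5ar1, which were mostly at background, or from Cfd, whose groups each held high and low arrays. Neighboring groups in the 6 orders overlapped except for Control over Hemin for C1qb and IRI+Hemin over Hemin for C3. Groups that do not overlap were found for 37.6% of all genes in the first of these comparisons and for 44.6% in the second. The exact permutation p was 0.0286 for each, the smallest that 4 against 4 arrays allow, and 0.514 after adjustment over the 36 neighboring pairs of all 9 members.

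The other genes of the pathway were read from a list of 55 complement names, of which 53 were on the array, 44 of them besides the 9 members. In IRI vs Control 6 of 39 tested genes of the whole list were called, 3 in each direction. In IPC+IRI vs Control 14 of 41 were called, 9 of them higher, and in IRI+Hemin vs Control 16 of 40, 8 of them higher. In IPC+IRI vs IRI 13 of 40 were called, 9 of them higher, and in IRI+Hemin vs IRI 7 of 40, 3 of them higher. In Hemin vs Control 9 of 42 were called, 5 of them higher. Each share lay below that of all genes tested, given above. The direction of the list's calls moves with the scaling: in Hemin vs Control 2 were higher and 7 lower when the percentile was taken over probes well above background on all arrays, and 10 were higher and 0 lower with no normalization. The median log2 difference over the 6 members well above background on all 20 arrays was 0.10 in IRI vs Control, 0.39 in IPC+IRI vs Control, 0.36 in IRI+Hemin vs Control, 0.30 in IPC+IRI vs IRI, 0.26 in IRI+Hemin vs IRI and -0.32 in Hemin vs Control. Over all genes tested it was -0.17, -0.09, -0.10, 0.09, 0.08 and 0.06 in the same order.

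Among receptors, Cd93, once described as a C1q receptor and found on endothelium and myeloid cells, rose in all 4 comparisons with Control, by 2.36 (IRI), 2.15 (IPC+IRI), 2.53 (IRI+Hemin) and 1.11 (Hemin) on the log2 scale. The endothelial marker sum was 12.2 to 15.5 for Control, 13.5 to 17.6 for IRI, 9.31 to 25.2 for IPC+IRI, 19.4 to 26.5 for IRI+Hemin and 14.8 to 22.7 for Hemin. Of 6 endothelial markers 1 was higher and 2 lower in IRI vs Control, 1 and 1 in IPC+IRI vs Control, 2 and 1 in IRI+Hemin vs Control and none in Hemin vs Control, and their part in the rise of Cd93 was not tested. Cr2, the C3d receptor of B cells, fell by 1.27 in IPC+IRI, by 1.16 in IRI+Hemin (well above background on 3 of 4 arrays) and by 0.70 in Hemin against Control. In IRI it was called lower too, but it was not well above background on any of the 4 IRI arrays, so no size is given. The lymphocyte marker sum was 0.616 to 0.669 in Control, 0.295 to 0.423 in IRI and 0.236 to 0.42 in IRI+Hemin. It was 0.353 to 0.594 in IPC+IRI and 0.402 to 0.503 in Hemin, which overlap, although Cr2 fell more in IPC+IRI. Of 7 lymphocyte markers tested 5 were lower in IRI vs Control, 5 in IRI+Hemin vs Control and 4 in IPC+IRI vs Control, and their part in the fall of Cr2 was not tested. Itgam, the alpha chain of complement receptor 3 on myeloid cells, was called higher in IPC+IRI vs Control, IRI+Hemin vs Control and IPC+IRI vs IRI. It was well above background on 2 of 4 Control arrays and 2 of 4 IRI arrays, and entered these comparisons only through the pretreated groups. The calls thus rest on a filter that it passed only where it was high, and no size is given. The call against IRI was lost in 5 of the 8 fits that left out 1 array (limma adjusted p up to 0.104). That of IRI+Hemin was lost in 3 of 8 (up to 0.0845). The interaction of Hemin and IRI was called for Cr2 and Cd55, and that of Cr2 rests on the IRI arrays where it was at background.

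Among the lectin pathway genes, Masp1, a protease of the pathway, rose by 2.14 in IRI and by 1.76 in IRI+Hemin against Control, and differed by -1.40 in IPC+IRI vs IRI (SE 0.46, limma adjusted p = 0.0198). That difference was -0.86 (adjusted p = 0.0778) without IPC+IRI replicate 1 and -1.16 (0.0676) without IRI replicate 1. Colec11, a collectin that recognises injured tubule cells, differed by -0.91 in IPC+IRI vs IRI and by -1.48 in IRI+Hemin vs IRI, the former -0.58 (adjusted p = 0.0325) without IPC+IRI replicate 1. Among the regulators, Susd4 was 1.71 higher in IPC+IRI than in IRI and 1.10 higher than in Control, and kept both calls whichever array was left out. Its other calls, -0.61 in IRI vs Control, 0.62 in IRI+Hemin vs IRI and 0.68 in Hemin vs Control, were lost in 5, 6 and 5 of 8 such fits (adjusted p up to 0.16, 0.169 and 0.125). Clu, a fluid phase inhibitor of the membrane attack complex and a marker of tubule injury, rose by 0.60 in IRI vs Control. It was lower in both pretreated groups than in IRI, with differences of -0.51 in IPC+IRI (limma adjusted p = 0.0212) and -0.60 in IRI+Hemin (0.00857), with means of 5.26 and 5.17 against 5.18 in Control. The first of these calls was lost in 4 of 8 fits that left out 1 array (adjusted p up to 0.0782). Cd55, which speeds the decay of C3 convertases, had an interaction of -0.75 (SE 0.21, adjusted p = 0.0364), whose call was lost in 10 of 16 such fits (up to 0.0853).

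**Figure D5:**
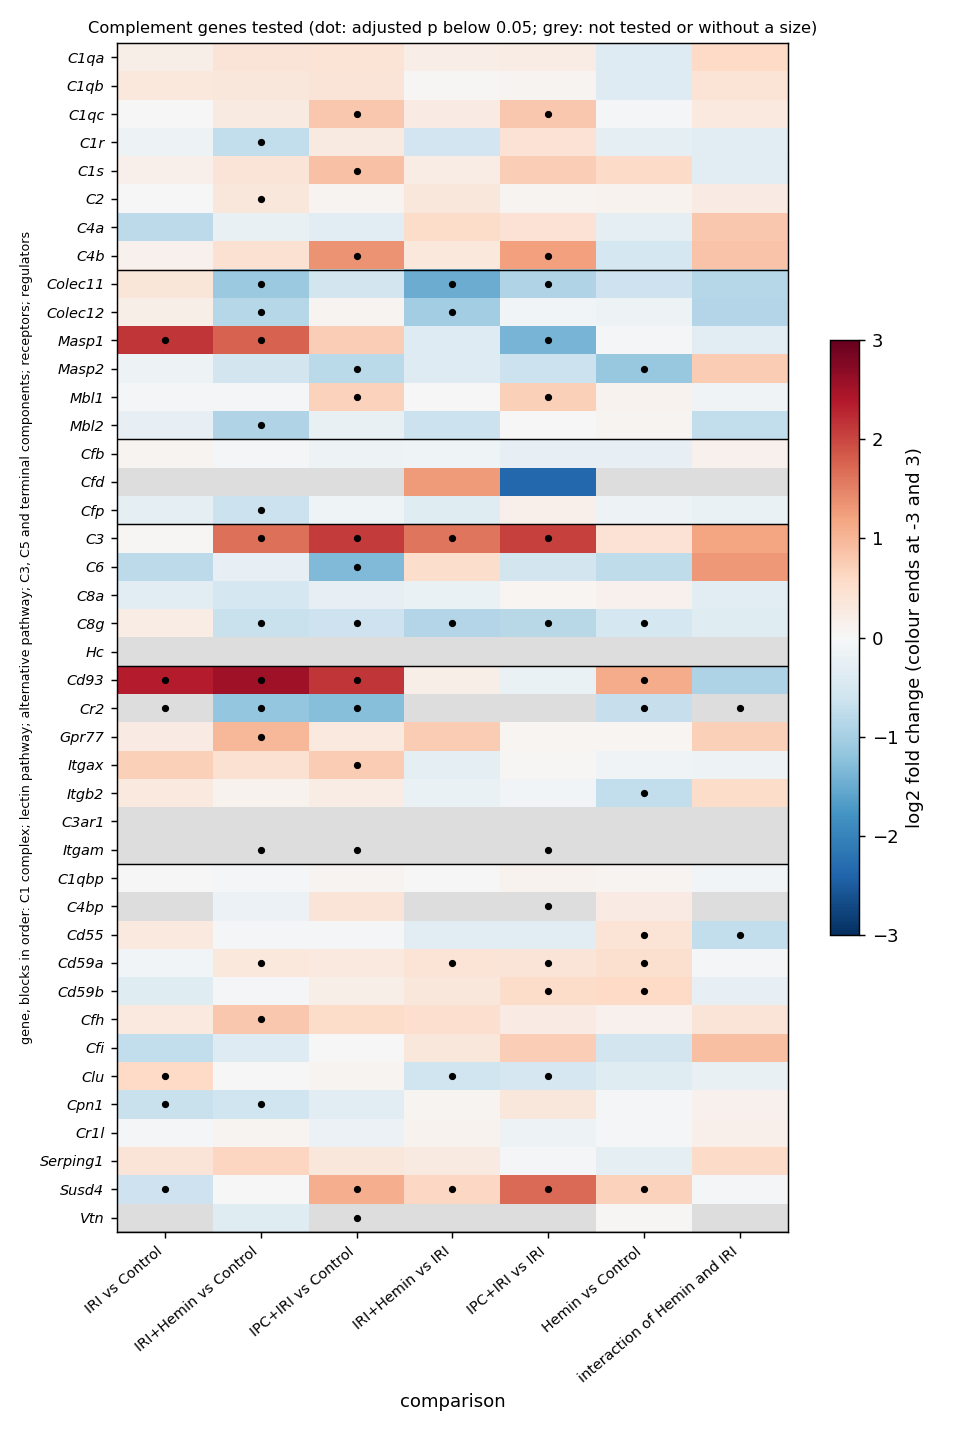
Log2 differences (colour) of the 42 complement list genes tested in at least 1 comparison (vertical axis, grouped by role) in the 7 comparisons (horizontal axis). Dots mark an adjusted p below 0.05. Grey marks a gene not tested or, for 29 of 284 tests, one well above background on fewer than 3 of 4 arrays of a group compared, so that no size is shown. Cd93 is high in the comparisons with Control, Cr2 is low in those that carry a colour, and Susd4 and C3 are high in IPC+IRI vs IRI.

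Macrophage and neutrophil markers moved with some of these results. The summed signal of the 12 macrophage and monocyte markers, in multiples of the 75th percentile, was 9.73 to 11.6 in Control, 13.5 to 16.5 in IRI, 13.1 to 18.9 in IRI+Hemin and 8.89 to 11.6 in Hemin. On the IPC+IRI arrays it was 11.1, 26.7, 31.3 and 17.9 for replicates 1 to 4. Replicate 3, the highest for C3, C4b and C1q, was the highest for macrophage markers. Replicate 1, the lowest of them for C1q and C3, had the lowest macrophage sum, while C4b was lowest on replicate 4. On the same arrays the neutrophil sum was 6.55, 16.1, 20.2 and 7.31 and the lymphocyte sum 0.353, 0.505, 0.594 and 0.373. Both were also lowest on replicate 1 and highest on replicate 3. Between IPC+IRI and IRI 5 of 11 macrophage markers tested were higher in IPC+IRI and 2 lower. Among them Aif1 was at 2.42, Lyz2 at 2.18 and Emr1 at 1.67 but Cd68 at -0.82. In IRI+Hemin vs IRI, where C3 was also called, 0 of 11 were higher and 1 lower. There 3 of 6 endothelial markers were higher and 1 lower. The neutrophil marker sum ranged from 0.385 to 1.70 over the Control and Hemin arrays, from 2.31 to 9.96 over the IRI and IRI+Hemin arrays and from 6.55 to 20.2 over the IPC+IRI arrays. Of 7 neutrophil markers tested in IPC+IRI vs IRI 1 was higher and none lower. The part of all these markers in the differences of C3, C4b and C1q was not tested. Proximal tubule markers, which define the labelled kidney tissue, summed to 433.4 to 484.2 in Control, 326.2 to 445 in IRI, 272.5 to 384.8 in IRI+Hemin, 305.1 to 350.9 in IPC+IRI and 403.6 to 420.4 in Hemin. Of 8 such markers 5 were lower in IRI+Hemin vs Control and 4 in IPC+IRI vs Control, with none higher, and their part in these results was not tested. Cd68, Emr1, Aif1 and Lyz2 were well above background on all 20.

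The genes whose pattern over the 20 arrays was most like that of a member were found among names well above background on every array, by the Pearson r of log2 expression. For C1qa they were C1qb (0.961), Mgp (0.924) and H2-Aa (0.889), and for C1qb they were C1qa, Mgp (0.93) and Selplg (0.904). H2-Aa encodes a chain of MHC class II and Selplg the leukocyte ligand of P-selectin. For C4b they were Mpeg1 (0.834), a macrophage gene, H2-Ab1 (0.826), also of MHC class II, and Lyz1 (0.804). C3 was most like S100a4 (0.859), 2310014D11Rik (0.858) and Cdh11 (0.85), the last a cadherin of mesenchymal cells. C3 and C4b had an r of 0.801 with each other. Cfd was most like Ly6d, Krt5 and the fat droplet gene Cidec, but its arrays form separate sets and no pooled r is given for it.

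For Cd59a the most similar genes were Tbc1d8b (0.925), Cyp39a1 (0.923) and Snapc5 (0.901), and for Cfb they were Pgrmc1 (0.822), Zfpl1 (0.813) and 2310036O22Rik (0.813). Neither set holds a complement gene. No likeness is given for C3ar1 and C5ar1, which were at background on most arrays. These 20 arrays share groups, slides and scan days, so the values describe likeness over these arrays alone.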

How the data were processed

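Kidney RNA of 20 samples in 5 groups was hybridised to Agilent 4x44K whole mouse genome arrays with 1 dye (Cy3), and the groups were taken from the sample labels. Per the file headers, the authors extracted the deposited processed signal intensity with Agilent Feature Extraction 9.5.3.1, which subtracts background. The deposited log2 matrix holds the same processed signals on the log2 scale and was used only as an alternative. Probe positions are those of the files (mm9). Here control spots and spots flagged as uneven or outliers were left out, spots of a probe and then probes of a gene were averaged on the linear scale, and log2 of the ratio to each array's 75th percentile was taken. The number of arrays limits the precision.

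A gene was tested where at most 1 value was missing and at least 3 of 4 arrays of a group (all but 1, and at least 1, where arrays were left out) were well above background. limma 3.58.1 in R 4.3.3 (data.table, version 1.17.8) was fitted to all 20 arrays with 1 mean a group and 15 residual degrees of freedom, with Benjamini-Hochberg adjustment over all genes tested in a comparison and a threshold of 0.05. Exact permutation tests were two-sided. The study's own permutation test was not run. The fit was tested on simulated data.

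Named were the 9 members, the 3 called genes of the complement list with the largest rise and fall in each comparison (some of them are described), and the 3 genes most like a member, except for C3ar1 and C5ar1. Genes named besides these (C1qc, Adipoq and the markers) were chosen after their values were seen. The members, the complement list and the marker lists were chosen with earlier results of these data known. Alternatives were other background corrections, normalizations, filters, probe summaries, sample sets, a replicate block, a fold cutoff and the deposited matrix.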

Additional observations from a re-analysis of the deposited data

Results flagged for a closer look

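In 4 of the 45 groups of 4 arrays examined (9 members in 5 groups), 1 array lay so far from the others that its gap to the nearest, divided by the group's whole range, passed Dixon's critical value for 4 values. By chance about 1 in 20 groups would do so. C3 was 1.54 in IRI replicate 1, where the other arrays lay between 0.10 and 0.26. C3ar1 was -4.43 in Control replicate 1, where the others lay between -5.94 and -5.80. C5ar1 was -3.92 in Control replicate 4, where the others lay between -6.94 and -6.60, and -2.50 in IPC+IRI replicate 3, where the others lay between -7.45 and -7.11. The gaps were 0.888, 0.912, 0.889 and 0.933 of the range. Values are log2 of signal over the array's 75th percentile.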

How the results depend on the processing

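Of 1169 refitted differences of single members, 49 lost and 16 gained a call, and 67 changed sign, none of which passed the test. C3ar1 is left out of these counts, since no size is given for it: it gained a call in 3 of 21 fits of IPC+IRI vs Control, with quantile normalization, no normalization or without Control replicate 1. The causes were not tested. The slide could not be fitted as a random block, because each group lies on 1 slide of its own. C3, C4b and Cd59a kept their direction in every alternative where they were called. Dim probes (C5ar1, C3ar1, the dim C3 probe) limit what signal over background can show.

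The number of members called changed as follows. In IRI+Hemin vs Control it fell from 2 to 1 with the replicate block, quantile normalization, the percentile over probes well above background on all arrays, only the arrays of the comparison, normexp, no filter, the mean of log2 values, the deposited matrix, the brightest probe, a 2-fold cutoff or the adipocyte covariate, and to 0 on the arrays without Adipoq, which leave 1 IRI+Hemin array. In IRI+Hemin vs IRI it fell from 2 to 1 with normexp, the mean of log2 values, the brightest probe or a 2-fold cutoff, and to 0 without the Adipoq arrays. In IPC+IRI vs IRI it fell from 3 to 1 with only the arrays of the comparison or without the Adipoq arrays and to 2 with normexp, the brightest probe or a 2-fold cutoff, and was 4 (3 higher, 1 lower) with quantile normalization or the other percentile. In IPC+IRI vs Control it rose from 2 to 4 with quantile normalization (3 higher, 1 lower) or no normalization, and to 3 with the other percentile (2 higher, 1 lower) or without the Adipoq arrays (all higher). In Hemin vs Control it rose from 1 to 2 with quantile normalization, the other percentile (1 higher, 1 lower in both) or only the arrays of the comparison, and was 0 with a 2-fold cutoff.

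With each array of a comparison left out in turn, 1 to 2 members were called in Hemin vs Control, 2 to 4 in IPC+IRI vs Control, 1 to 4 in IPC+IRI vs IRI, 0 to 2 in IRI+Hemin vs Control and in IRI+Hemin vs IRI, and 0 in IRI vs Control and the interaction. For the complement list it gave 5 to 8 in Hemin vs Control, 10 to 15 in IPC+IRI vs Control, 6 to 15 in IPC+IRI vs IRI, 5 to 7 in IRI vs Control, 11 to 15 in IRI+Hemin vs Control, 4 to 7 in IRI+Hemin vs IRI and 1 to 2 in the interaction.

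For the complement list the 2-fold cutoff left 2 calls in Hemin vs Control, 8 in IPC+IRI vs Control, 5 in IPC+IRI vs IRI, 3 in IRI vs Control, 7 in IRI+Hemin vs Control, 3 in IRI+Hemin vs IRI and 0 in the interaction. Normexp left 4, 6 and 7 in Hemin, IPC+IRI and IRI+Hemin vs Control and 0 in the interaction. The arrays without Adipoq left 5 in Hemin vs Control, 5 in IPC+IRI vs IRI, 6 in IRI+Hemin vs Control, 1 in IRI+Hemin vs IRI and 0 in the interaction, the last 3 with a single IRI+Hemin array. Only the arrays of the comparison gave 8 in IPC+IRI vs Control and 6 in IPC+IRI vs IRI, and no normalization gave 10 in IRI+Hemin vs Control and 0 in the interaction. The interaction had 1 in place of 2 with the replicate block, quantile normalization, the other percentile, the stricter filter or none, the mean of log2 values, the deposited matrix or the brightest probe.

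The split of the list's calls moved with the scaling. For IRI vs Control it was 3 higher and 3 lower, against 7 and 2 with quantile normalization and 3 and 5 with the other percentile. For IPC+IRI vs Control it was 9 and 5, against 15 and 1 with no normalization, 7 and 7 with the other percentile and 6 and 0 with normexp. For IRI+Hemin vs Control it was 8 and 8, against 9 and 1 with no normalization and 5 and 9 with the other percentile. For IPC+IRI vs IRI it was 9 and 4, against 11 and 0 with no normalization, 7 and 6 with quantile normalization, 8 and 6 with the other percentile and 4 and 5 with normexp. For IRI+Hemin vs IRI it was 3 and 4, against 8 and 1 with no normalization and 2 and 5 with normexp. For Hemin vs Control it was 5 and 4, against 10 and 0 with no normalization, 5 and 6 with quantile normalization and 2 and 7 with the other percentile. For IRI vs Control it was also 3 and 1 with normexp or no normalization. With no normalization the median difference over all genes was 0.35 in IPC+IRI vs Control, 0.38 in IRI+Hemin vs Control and 0.62 in Hemin vs Control, in place of -0.09, -0.10 and 0.06.

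The sign changes among values not called were these. With no normalization, Hemin vs Control became 0.18 for C1qa, 0.19 for C1qb, 0.038 for C4b and 0.31 for Cfb. Cfb also became 0.28 in IPC+IRI vs Control, 0.079 in IPC+IRI vs IRI, 0.45 in IRI+Hemin vs Control, 0.25 in IRI+Hemin vs IRI and -0.062 in the interaction, Cd59a 0.033 in IRI vs Control, and Cfd 0.29 in IPC+IRI vs Control and -0.19 in the interaction. With normexp, Cfb became 0.30 in IRI+Hemin vs Control and in IRI+Hemin vs IRI, C3 -0.029 in IRI vs Control, C4b -0.062 in IRI+Hemin vs IRI and Cfd -0.23 in the interaction. With the mean of log2 values, C3 became -0.54 in Hemin vs Control and -0.57 in IRI vs Control. IRI vs Control became -0.0040 for C3 with quantile normalization and -0.045 with the other percentile, which also made the Cd59a interaction 0.013. Quantile normalization made Cfd 0.051 in IPC+IRI vs Control and -0.0093 in the interaction.

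Both alternatives on fat markers were chosen after seeing the data. With the adipocyte covariate, IRI vs Control became -0.18 for C3, -0.11 for C4b and -0.54 for Cfd, and Cfd became 0.29 in IPC+IRI vs Control and 0.83 in IPC+IRI vs IRI. On the arrays without Adipoq, C1qa became -0.092 in IRI vs Control, C1qb -0.016 in IRI+Hemin vs IRI, C4b -0.023 in IRI+Hemin vs Control and -0.13 in IRI+Hemin vs IRI, the Cfb interaction -0.16, and Cfd 0.058 in IPC+IRI vs Control, 0.40 in IPC+IRI vs IRI and -0.34 in IRI vs Control.

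Leaving out 1 array at a time, IPC+IRI vs IRI ranged from -0.13 to 0.66 for C1qa and from -0.26 to 0.47 for C1qb, and IRI+Hemin vs IRI from -0.091 to 0.12 for C1qb. IRI vs Control ranged from -0.30 to 0.47 for C3, from -0.067 to 0.45 for C4b and from -0.17 to 0.0032 for Cd59a, whose interaction ranged from -0.16 to 0.012. Cfb ranged from -0.074 to 0.031 in IRI+Hemin vs Control. Cfd ranged from -0.19 to 3.86 in Hemin vs Control, from -2.55 to 2.46 in IPC+IRI vs Control, from -0.85 to 3.37 in IRI+Hemin vs IRI and from -2.60 to 2.12 in the interaction.

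Replicate numbers did not pair the samples: of 24 correlations of deviations between same-numbered arrays 2 were above 0.1, and they ranged from -0.277 to 0.176. With the replicate number as a block, 1 member was called in IRI+Hemin vs Control in place of 2, since Cd59a was at 0.32 with a limma adjusted p of 0.0564.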
